A study of Caenorhabditis elegans with 20 samples.

Results

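The transcriptome of *daf-2(e1370)* dauers that received neither part of the degradation system is described here from 5 of the 20 libraries of the study, chosen by their labels as the strain without TIR1(F79G) kept on solvent. Each library came from a separate biological replicate of about 24000 whole animals of strain OH14654, genotype *daf-2(e1370); daf-16(ot853)*, grown with 0.2% ethanol and no 5-Ph-IAA on *E. coli* OP50 for 3 days at 25°C. *e1370* impairs the insulin receptor DAF-2 at higher temperature, and *ot853* puts mNeonGreen and an auxin-inducible degron on DAF-16/FoxO at its own locus, so every animal in the series carried both alleles. Libraries used for comparison came from the same strain with 100 µM 5-Ph-IAA (5-Ph-IAA alone, n = 5) and from strain OH17582, which adds the insertion *otSi2* that expresses TIR1(F79G) in the intestine, on solvent (TIR1 alone, n = 5). The remaining 5 libraries had both parts. The RNA was total RNA of whole animals depleted of ribosomal RNA, with 100 ng entering each library. These dauers formed because insulin signaling was reduced by mutation, not by crowding or starvation, no wild-type or non-dauer library is compared here, and animals that had not arrested were removed by hand according to the methods. In RNA from whole animals, fewer cells of a type and less RNA per cell cannot be told apart.

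The dauer is an alternative larval stage that does not feed, lives long and resists stress. Its mouth is closed by a special cuticle, its pharynx stops pumping, and it lives on stored fat, which the glyoxylate cycle can turn into carbohydrate. In the nematode *C. elegans*, insulin receptor signaling keeps the transcription factor DAF-16 out of the nucleus, and weak signaling lets it in. TGF-β, cGMP and steroid hormone (dafachronic acid) signaling act with insulin on the same choice between reproductive growth and arrest.

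The 5 libraries held 6249223 to 12323401 reads on genes, with a median of 8303396. Protein-coding genes took 90.9% to 93.4% of these reads and ribosomal RNA 4.52% to 6.97%. Across the 14917 protein-coding genes averaging at least 2 normalized counts, pairs of libraries had Pearson correlations of 0.972 to 0.983 on the log2 scale, a value across genes, which are not independent replicates. To compare genes of different length, reads were divided by the merged exon length of the gene and scaled to the same total of 1000000 over all protein-coding genes in each library. This value is called the level below. Values for the same gene in different libraries are also given as normalized counts, which are not divided by length.

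Of 19980 protein-coding genes, 153 (0.766%) were very abundant, with a mean level of at least 1000, and these genes together made up 40.6% to 41.5% of the level in a library. A further 1325 genes were abundant (100 to 1000) and made up 30.6% to 31.01%. The 7131 moderate genes (10 to 100) were the most numerous group and made up 25.6% to 26.6%. At the low end, 4570 genes lay between 1 and 10, 4833 had reads but a level under 1, and 1968 (9.85%) had no read in any of the 5 libraries. Reads in all 5 libraries were found for 14277 protein-coding genes. A count of 0 over the 42615262 reads of the 5 libraries allows up to 3 reads, or 0.0704 per 1000000 reads, from counting error alone.

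Very abundant genes were spread unevenly over the chromosomes. Chromosome III carried 36 of them, IV 32, I 31, V 23 and II 16, against 7 on the X chromosome. The mitochondrial genome, with 12 protein-coding genes, carried 8. The X chromosome with its 2730 protein-coding genes contributed 7.69% to 7.90% of the level, while chromosome III with 2639 genes contributed 21.2% to 21.5%. Chromosome V had the most genes, 4994, and the lowest median level, 1.71, and 13.1% of its genes had no read.

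The 20 most abundant protein-coding genes were nearly all genes for translation and mitochondrial respiration, and together made up 12.4% ± 0.13 (SD, n = 5) of the level. The highest was *COX3* (MtDNA, 5678 to 6449), a mitochondrially encoded subunit of cytochrome c oxidase, with levels of 12116, 12897, 12552, 12468 and 12232 in replicates 1 to 5. Next came *eef-1A.1* (chromosome III, 6970026 to 6971712, minus strand), which encodes the elongation factor that brings aminoacyl-tRNA to the ribosome, with levels of 10542, 11634, 11675, 11980 and 10868. The lowest *COX3* level was above the highest *eef-1A.1* level, so these positions did not overlap in any library. The large-subunit protein gene *rpl-36* had 9653, 8770, 10339, 10555 and 10285, so only its highest value, in replicate 4, reached the lowest value of *eef-1A.1*, in replicate 1. Below a gap came *rla-0*, the ribosomal stalk protein P0, at 7047 ± 183, followed by *COX1*, another cytochrome c oxidase subunit, at 6978 ± 463, and *rla-1*, a stalk protein, at 6663 ± 378 (SD, n = 5 each). The ranges of these 3 genes overlapped, so their order was not fixed beyond the spread between replicates.

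Among the rest of the 20, the small-subunit gene *rps-8* had a level of 6433 ± 47.9 and the ADP/ATP carrier gene *ant-1.1* of 6180 ± 75.1. The translocation factor gene *eef-2* had 5580 ± 203, and *CYTB*, the cytochrome b gene, 4487 ± 155. *F57F4.2*, at 4670 ± 426, was the only member of the 20 with no named function here. Ribosomal protein genes filled the other positions down to *rps-10*, at 4201 ± 197. Of these 20 genes *F57F4.2* had the widest ratio between its highest and lowest library, 1.29, and *rpl-41.2* had 4554 in replicate 2 and 5654 in replicate 3. Reads of *rpl-41.2* may be shared with a close copy, and *eef-1A.1* overlaps exons of *F31E3.12* on the opposite strand. The strand setting of the counting is not given in the sources used here, so reads of such pairs cannot be told apart.

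**Figure D1:**
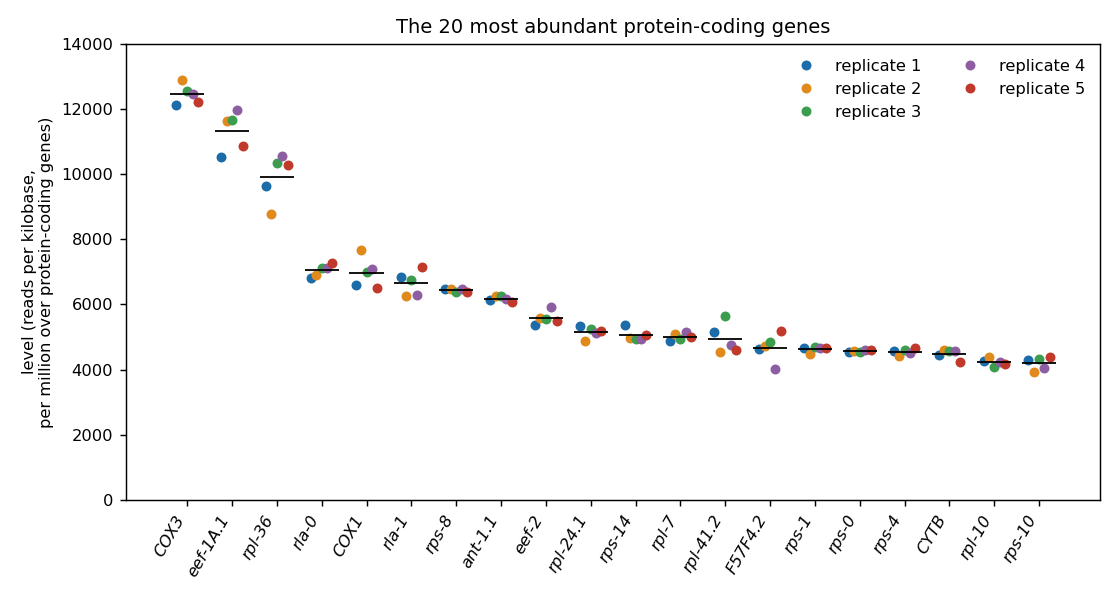
Level of the 20 most abundant protein-coding genes (y axis, reads per kilobase, scaled to 1000000 over protein-coding genes) in each of the 5 libraries (points, 1 colour per replicate), with the mean as a black line. *COX3* at 12116 to 12897 and *eef-1A.1* at 10542 to 11980 lead, and the last gene, *rps-10*, averages 4201.

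Dividing by length changed which genes came first. By normalized count, 8 of the same 20 genes stayed among the first 20 protein-coding genes and the list was joined by long genes such as *ttn-1*, the giant muscle protein titin, with 25596 ± 803 normalized counts over 56044 bases of exon, and *dig-1*, a giant extracellular matrix protein, with 26328 ± 948 over 39690 bases. *icl-1* (39741 ± 6396) and *pck-2* (39796 ± 2669) also joined by this measure (SD, n = 5 each). Outside the protein-coding genes, the highest normalized count was that of the ribosomal RNA gene *rrn-3.1*, with a mean of 479533 and a range of 369512 to 609263, the part of ribosomal RNA left after depletion. The non-coding RNA gene *C30E1.9* on the X chromosome had 71332 ± 3368 normalized counts, more than all protein-coding genes other than *eef-1A.1* and *eef-2*, and it overlaps exons of *F52G3.6* on the same strand. Of the other short RNA classes, 107 of 261 microRNA genes and 2012 of 15363 piRNA genes had any read. Libraries of this type do not capture such short RNAs in full.

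Translation genes dominated as a family. The 79 cytosolic ribosomal protein genes, which build the subunits of the ribosome, summed to 22.5% ± 0.243 of the level (SD, n = 5), and 71 of them were very abundant. The lowest were *rpl-42*, with 5 reads in all, and *rpl-37*, at a level of 134 ± 40.7. The 70 mitochondrial ribosomal protein genes were expressed at a far lower and very even level, 68 of them in the moderate class, with a median of 39.7. Of 39 translation factor genes, 6 were very abundant and 17 abundant. After *eef-1A.1* and *eef-2* came *eef-1B.1* (3293 ± 93.4) and *eef-1G* (3186 ± 70.6), subunits of the factor that recharges elongation factor 1A.

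Respiration and energy genes formed the next large block. The 12 mitochondrially encoded protein genes summed to 3.34% ± 0.159 of the level, the 41 nuclear genes for complexes I to IV to a level of 10481 ± 150, and the 10 ATP synthase genes to 7668 ± 184. Among the ATP synthase genes, *atp-2*, the catalytic β subunit, had a level of 2640 ± 62.5. The 20 vacuolar ATPase genes, which acidify lysosomes and the intestinal lumen, comprised 18 abundant genes and summed to 5911 ± 64.6. The 33 proteasome genes comprised 26 abundant genes, led by *rpn-6.1* at 195 ± 5.03, and varied by only 1.22% (CV of the sum) between libraries.

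All 9 genes of the glyoxylate cycle and gluconeogenesis list had levels above 100. *icl-1*, which encodes the glyoxylate cycle enzyme that combines isocitrate lyase and malate synthase, had levels of 1961, 2377, 2588, 1946 and 1824 in replicates 1 to 5. *pck-2*, a phosphoenolpyruvate carboxykinase gene that starts gluconeogenesis, had 1932, 2083, 2093, 2154 and 1852, and its paralog *pck-1* had 943 ± 128. The sum of the list was highest in replicate 3 (9678) and lowest in replicate 5 (7808). Among glycolysis genes, the aldolase gene *aldo-2* (1437 ± 68.7) and the enolase gene *enol-1* (1023 ± 31.5) led, which also act in the reverse pathway, while the phosphofructokinase gene *pfk-1.1*, an enzyme of glycolysis only, had a level of 58.5 ± 4.73. *pfk-1.1* does not stand for the glycolysis list, in which 9 of 14 genes had a level of at least 100 and the median was 155. In the tricarboxylic acid cycle, the citrate synthase gene *cts-1* had 1402 ± 78.6 and the aconitase gene *aco-2* 1298 ± 46.4.

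Genes of fat transport and desaturation were also prominent. The fatty acid and retinol binding protein gene *far-1* had a level of 3545 ± 308 and *far-3* of 1106 ± 179. *fat-1*, the omega-3 desaturase, had 2002 ± 136 and *fat-2*, the delta-12 desaturase, 1213 ± 107, so both lay far above *fat-6* (114 ± 26.8), which desaturates stearic acid. The close paralog *fat-7* was nearly silent, with levels of 0.509, 0.364, 0, 0 and 0.689 and 10 reads in all. In the family of acyl-CoA synthetases, dehydrogenases and oxidases, the synthetase gene *acs-2* had 1316 ± 189 and the dehydrogenase gene *acdh-1* 254 ± 39.4. Lipase genes were modest. *atgl-1*, the adipose triglyceride lipase, had 97.8 ± 10.2, and the lysosomal lipase genes *lipl-1* and *lipl-3* had 0.284 ± 0.200 and 0.281 ± 0.247.

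Levels of at least 100 were found for 3 of 14 small heat shock protein genes, 8 of 10 larger chaperone genes, 5 of 10 antioxidant enzyme genes and 5 of 7 desiccation and survival genes. The small heat shock protein gene *sip-1* had levels of 1262, 1237, 1351, 1233 and 1353, while the next member, *hsp-12.2*, had 124 ± 6.47 and *hsp-12.6* 62.4 ± 8.03. In the *hsp-16* group, *hsp-16.2* and *hsp-16.41* had levels of 35.5 and 34.5, and 4 members had no read. Those 4 belong to duplicated gene pairs of identical or nearly identical sequence, so a count of 0 does not show that they were silent. *hsp-90* had 2116 ± 171 and *hsp-1*, a constitutive Hsp70, 1521 ± 88.6. The metallothionein gene *mtl-1* had 1529 ± 130, whereas *mtl-2* had 5.88 ± 3.81. *sod-1*, the cytosolic superoxide dismutase gene, had 654 ± 17.8, the manganese superoxide dismutase gene *sod-3* 97.8 ± 7.64, and the catalase gene *ctl-1* 5.74 ± 1.40. Of the desiccation and long-term survival list, *lea-1*, which encodes a late embryogenesis abundant protein, had 354 ± 15.3, the trehalose-6-phosphate synthase genes *tps-2* and *tps-1* had 178 ± 31.4 and 151 ± 6.39, and the DJ-1 homologs *djr-1.1* and *djr-1.2* differed, with 111 ± 1.51 and 2.14 ± 0.769.

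Families of secreted and lysosomal proteins differed in how many members were abundant. In the SCP-like family of 26 extracellular proteins, *scl-12* (2713 ± 232), *scl-11* (1880 ± 246) and *scl-13* (952 ± 172) stood above *scl-21*, the fourth, at 44.0 ± 3.48. Of 240 C-type lectin genes, 61 had no read and 111 had a level under 1, while *clec-1* had 593 ± 67.5 and *clec-63* 389 ± 22.8. The 58 transthyretin-related genes were broadly expressed, with 17 abundant members led by *ttr-41* (948 ± 62.3). The cathepsin L gene *cpl-1* had 1485 ± 101 and the cathepsin B-like gene *cpr-6* 1056 ± 20.7, lysosomal proteases. Of the 74 cytochrome P450 genes, *cyp-33B1* had 600 ± 37.4 and the second, *cyp-34A2*, 190.5 ± 7.09.

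**Figure D2:**
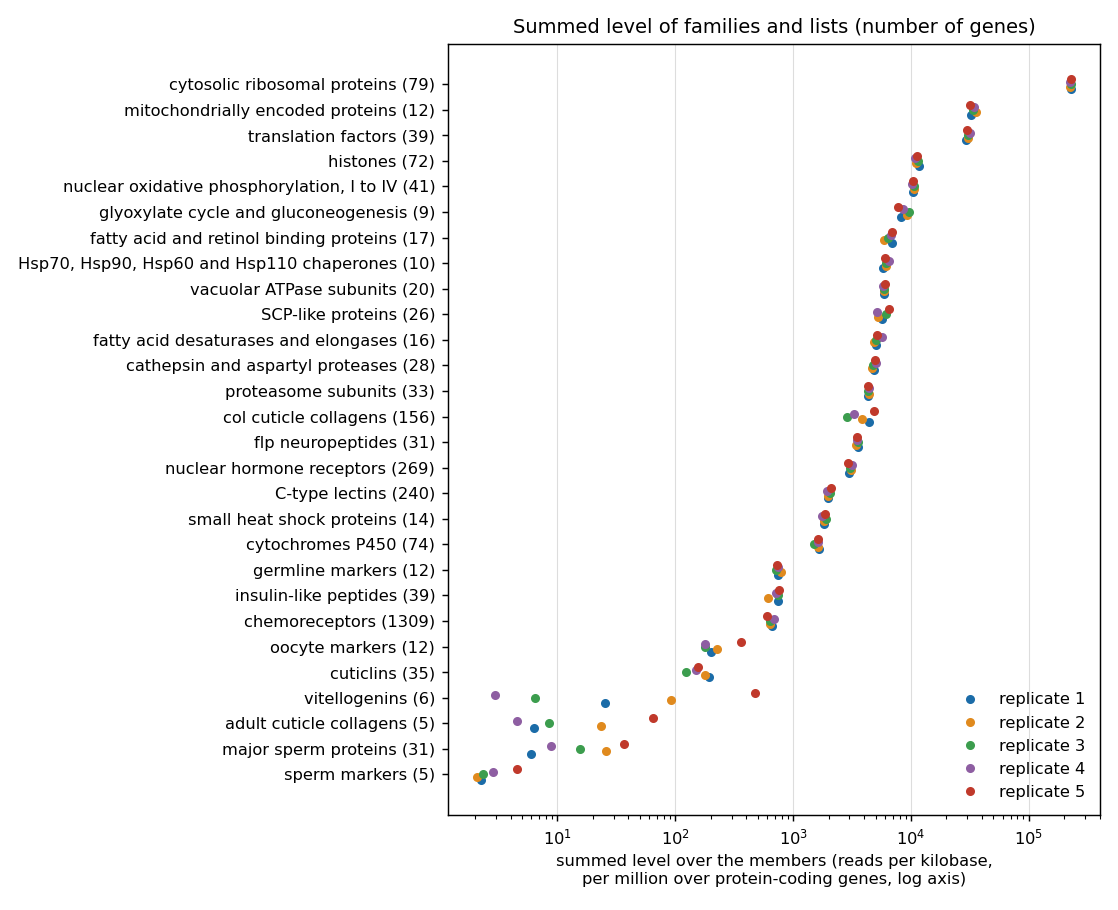
Summed level of each family or list (x axis, reads per kilobase, scaled to 1000000 over protein-coding genes, log axis) in each of the 5 libraries (points, 1 colour per replicate), with the number of genes in brackets. Ribosomal protein genes sit highest with points on top of each other, and vitellogenins span 2.95 to 475.

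Genes of the dauer pathways were all read. The insulin receptor list held 8 moderate, 4 abundant and 1 very abundant gene, the dafachronic acid list 2 low, 1 moderate and 2 abundant genes, and the cGMP list 3 low genes and 1 abundant gene. *daf-16* had levels of 370, 399, 389, 390 and 386, and *daf-2* had 89.6, 97.6, 89.5, 94.2 and 87.4. Both carry alleles in every library, and their levels say nothing of protein activity. Among other insulin pathway genes, the 14-3-3 gene *ftt-2* had 1052 ± 34.04, the kinase gene *akt-1* 173 ± 8.80 and the PI 3-kinase gene *age-1* 34.2 ± 1.94. The 13 genes of this list summed to a level with a CV of 0.794% between libraries. All 7 genes of the TGF-β list were moderate, from *daf-8*, a Smad, at 22.7 ± 3.01 to *daf-4*, the type II receptor, at 71.5 ± 2.45, with the ligand gene *daf-7* at 38.2 ± 4.11. The nuclear hormone receptor gene *daf-12*, which binds dafachronic acid, had 168 ± 8.23, and *daf-9*, a cytochrome P450 that makes the hormone, 33.96 ± 2.55. In the cGMP list, the kinase gene *egl-4* had 262 ± 3.71, and *daf-11*, *tax-2* and *tax-4*, which act in a small set of sensory neurons, had 1.89 to 3.65.

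Insulin-like peptide genes covered the whole range. Of 39 genes, 2 were abundant, 9 moderate, 15 low and 10 under 1, and *ins-2*, *ins-8* and *ins-19* had no read. *ins-27* was the highest, with levels of 249, 176, 268, 263 and 284, lowest in replicate 2. *ins-17* had 112 ± 8.14, *ins-24* 66.8 ± 5.33 and *ins-28* 50.4 ± 9.17. Of the further genes the study names, *ins-35* had 36.6 ± 7.37, *ins-18* 26.9 ± 4.84, *ins-1* 17.9 ± 2.46, *ins-33* 6.11 ± 2.09 and *ins-7* 1.27 ± 0.650, the last on 14 reads in all. *nlp-40*, a neuropeptide-like gene released by the intestine, had 183 ± 6.58. The secretion genes *aex-5*, a proprotein convertase, and *aex-1* had 10.96 ± 0.981 and 2.28 ± 0.258, and *aex-5* overlaps exons of *maph-1.1* and *str-245* on the opposite strand. The ferritin gene *ftn-1* had 118 ± 13.2, *gst-38*, a glutathione S-transferase, 28.4 ± 2.42, and the small heat shock protein gene *hsp-12.3* 28.8 ± 2.40.

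Neuronal genes were well represented. Every 1 of the 31 *flp* neuropeptide genes had reads, and 14 were abundant, led by *flp-9* at 394 ± 28.3. Of 71 *nlp* genes, 14 were abundant, led by *nlp-49* at 419 ± 21.8. The proprotein convertase gene *egl-3*, which processes neuropeptides, had 822 ± 24.3. Chemoreceptors were the opposite case. Of 1309 genes, 273 had no read, 919 had a level under 1 and 5 had a level of at least 10, the highest being *str-176* at 65.3, 63.3, 60.6, 63.4 and 62.2. *sri-70* was next, at 27.7 ± 3.75. Nuclear hormone receptors were mostly low, with 3 of 269 above 100, namely *nhr-88* (127 ± 4.89), *nhr-49* (120 ± 3.65), a regulator of fat use, and *nhr-105* (115 ± 13.4). F-box genes had no member above 100 and 88 of 322 with no read.

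Markers of several tissues were read, as the label of whole animals implies. The body wall myosin gene *unc-54* had a level of 664 ± 60.1 and the pharyngeal myosin gene *myo-2* 455 ± 26.1. The intestinal GATA factor gene *elt-2* had 15.3 ± 2.22 and the epidermal factor gene *lin-26* 60.5 ± 10.4. These single factor genes do not stand for their lists. The 10 intestine markers summed to 1906 ± 51.7 and the 8 epidermal markers to 165 ± 20.3 (SD, n = 5). Germline genes were present, with *prg-1*, the Piwi gene, at 159 ± 12.03 and *glh-1*, a germ granule helicase, at 139 ± 5.33. The 12 germline markers had a median level of 47.9, with 2 abundant, 9 moderate and 1 under 1. Of 14 DNA replication and cell cycle genes 12 were moderate, and the highest was *pcn-1*, the sliding clamp, at 161 ± 3.63. Of the 5 sperm markers, 4 had a level under 1, among them *fer-1* at 0.307 ± 0.125, and *spe-11* had 1.41 ± 0.589. The collagen genes *col-2* and *col-40*, known from dauers, had mean levels of 163 and 152. The adult collagen gene *col-7* had 0.140 ± 0.136, on 5 reads. *col-7* does not stand for the list of 5 adult cuticle collagens, of which 1, *col-19*, was moderate, 1 low and 3 under 1. The summed level of that list was 6.34, 23.3, 8.50, 4.52 and 64.1 in replicates 1 to 5. Of the collagen family with 156 members, *col-107* (526 ± 43.5) and *col-166* (517 ± 75.4) led.

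Histone genes ranged from no read to very abundant. *his-64*, a histone gene, had a level of 3287 ± 177 and *his-59* 2528 ± 118, while 29 of 72 had no read. Most histone genes occur in near-identical copies, and how reads that fit several copies were counted is not given in the sources used here, so levels of single copies are uncertain. The same holds for the major sperm proteins, of which 8 of 31 had no read and the highest, *msp-31*, had 2.56 ± 1.24. Of the 1968 protein-coding genes with no read, 532 fell in the families listed, most of them chemoreceptors. In the other 15 libraries of the series, 899 of the 1968 had no read either and 1069 had at least 1. Depth differed between libraries, and its part in this split was not tested.

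Most genes varied little between the replicates, and a small set varied a great deal. The spread of each gene was measured as a biological coefficient of variation (CV), the CV of its normalized counts after the part given by counting was subtracted. Among the 9646 genes that averaged 50 or more normalized counts, the median was 0.0457, and 7675 (79.6%) were below 0.1. Estimates below 0 were set to 0, and 2542 genes had a value of 0. A value over 0.3 was found for 134 genes (1.39%), of which 32 were over 0.5 and 16 over 1. The gene nearest above the threshold had 0.3004 and the gene nearest below had 0.2994. None of the 153 very abundant genes was over 0.3. With edgeR's tagwise dispersion, which draws each gene toward the trend, 33 genes were over 0.3 and the median was higher, 0.0792.

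The steadiest genes with a mean of at least 1000 normalized counts were *npp-14*, a nucleoporin gene, with 1995 ± 6.24 (CV 0.313%), and *unc-2*, a calcium channel gene, with 1582 ± 8.72 (CV 0.551%). *agef-1* (0.608%), *fln-2*, a filamin gene (0.909%), *Y37E3.8* (0.912%) and *him-4*, the hemicentin gene (0.931%), followed. Each of these 6 CVs was below the spread that counting alone gives at the reads of the gene, so their order is within counting error.

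Vitellogenin genes, which encode yolk proteins made in the adult intestine for oocytes, varied most. *vit-6* had 269, 931, 61.4, 37.7 and 5385 normalized counts in replicates 1 to 5, a biological CV of 1.71. *vit-2* had 191, 814, 91.3, 36.4 and 4546. The same order of replicates, 5, 2, 1, 3 and 4, was found for *vit-6*, *vit-2*, *vit-5* and *vit-1*. *vit-3* and *vit-4* had 500 and 469 in replicate 5, while *vit-4* had no read in replicates 3 and 4 and *vit-3* none in replicate 4. Several of these genes are close paralogs, so the split of reads between them is uncertain. The summed level of the family was 25.4, 91.3, 6.39, 2.95 and 475, a 161-fold range. Without replicate 5 the biological CV was 1.28 for *vit-6* and 1.26 for *vit-2*, and all 6 genes stayed above 0.3, although 2 of them then had a mean under 50.

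**Figure D3:**
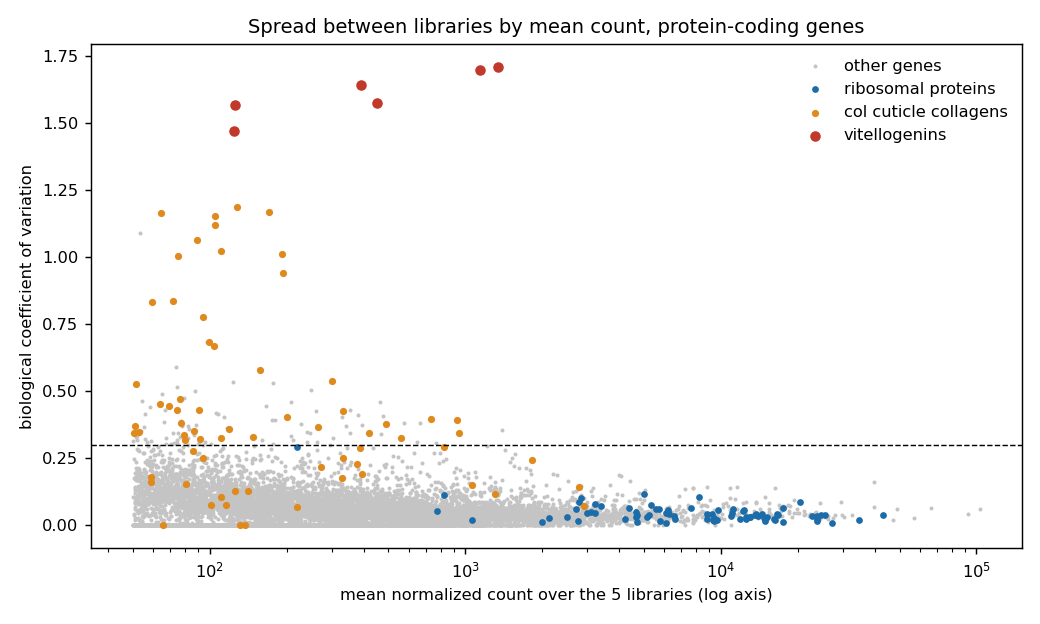
Biological CV between the 5 libraries (y axis) against the mean normalized count (x axis, log axis) of each protein-coding gene with a mean of at least 50. The dashed line marks 0.3. Vitellogenins (red, 1.47 to 1.71) and many *col* collagens (orange) stand above it, and ribosomal protein genes (blue) lie below it.

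Cuticle collagens were the largest family in the variable set. Of the 69 *col* genes with a mean of at least 50, 43 (62.3%) were over 0.3, against 1.39% of all genes. They fell into patterns by replicate, with 22 highest in replicate 5, 20 in replicate 1 and 1 in replicate 2, and 23 lowest in replicate 3 and 17 in replicate 4. *col-140* had 41.3, 124, 55.1, 24.2 and 391 normalized counts. *col-19*, an adult cuticle collagen gene, had 29.04, 123, 47.2, 14.8 and 312, so replicate 5 was highest and replicate 2 next, as for the vitellogenins. *col-122*, *col-119*, *col-80*, *col-106*, *col-20* and *col-181* were among the 15 most variable genes as well, with biological CVs of 1.01 to 1.17. The oocyte genes *rme-2*, the yolk receptor, *egg-1* and *cbd-1*, which builds the eggshell, were also highest in replicate 5, as *rme-2* had 155, 210, 118, 124 and 292. The summed level of the 12 oocyte markers was 201, 227, 180, 180 and 361. The summed level of the germline markers was 734 in replicate 5 and 716 to 790 in the others. What part animals beyond the dauer stage had in these differences was not tested.

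The remaining patterns below were picked after the values were seen, as examples of genes highest in another replicate. Several genes linked to the dauer were highest in replicate 1. *col-2* had 1460, 997, 444, 816 and 919 normalized counts and *col-40* 1395, 1045, 497, 835 and 957. *cut-1*, a cuticlin of the dauer cuticle, had 754, 570, 230, 405 and 427, and *daf-42*, a gene needed for dauer development, had 278, 193, 83.4, 158 and 159. Replicate 1 was highest and replicate 3 lowest for each of these 4 genes. The same held for other genes, such as *col-36* and the hedgehog-related gene *grl-20*, so the pattern was not particular to them. In contrast, *spp-9* and *spp-21*, saposin-like genes, and *asp-18*, an aspartyl protease gene, were highest in replicate 4, and *spp-9* had 83.8, 51.0, 107, 225 and 149. The folate transporter gene *folt-2* was highest in replicate 3, with 105, 230, 357, 203 and 144. The C-type lectin gene *clec-174* was highest in replicate 1, with 153, 65.3, 14.2, 17.5 and 17.3. Across the 134 genes the highest value was in replicate 5 for 53, replicate 1 for 48, replicate 4 for 17, replicate 3 for 12 and replicate 2 for 4.

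**Figure D4:**
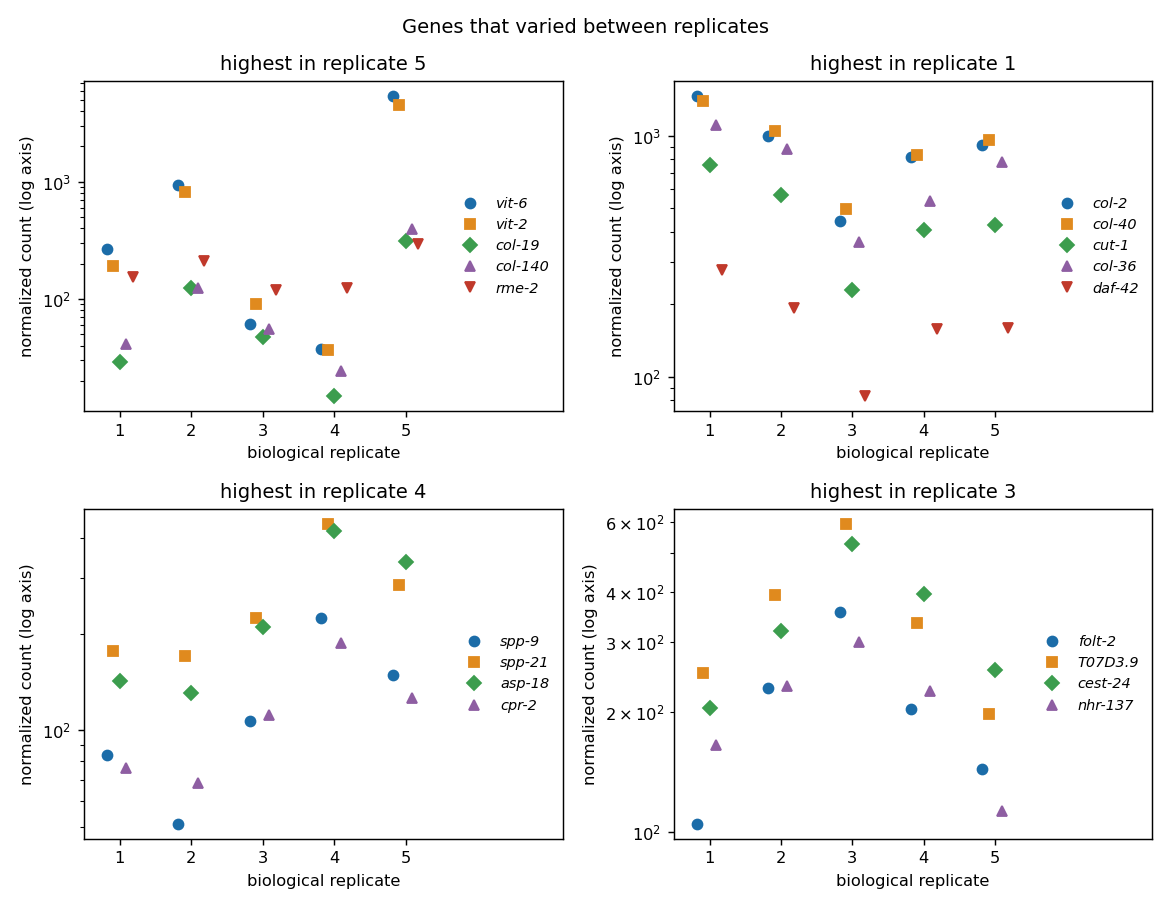
Normalized count (y axis, log axis) of genes with a biological CV over 0.3 in each biological replicate (x axis), in 4 panels by the replicate in which they were highest, with a colour and marker per gene. *vit-6* reaches 5385 in replicate 5 and *col-2* 1460 in replicate 1.

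The same measure was taken in libraries that played no part in choosing these genes. Of the 134 genes, 98 had a mean of at least 50 among the 5 libraries with 5-Ph-IAA alone, and 56 of them (57.1%) were over 0.3 there, against 1.11% of all genes. Among the TIR1 alone libraries 118 were measured and 68 (57.6%) were over 0.3, against 1.47% of all genes. These libraries shared the growth conditions and replicate numbers, and the genes with the highest counts in replicate 5 did not always follow the number. The summed level of the vitellogenins was 475 in replicate 5 with neither component, 0.128 in replicate 5 of 5-Ph-IAA alone and 279 in replicate 5 of TIR1 alone. In replicate 3 it was 6.39 with neither component, 0.618 with 5-Ph-IAA alone and 0.0341 with TIR1 alone. Of the 43 variable collagens, 13 of 24 measured were over 0.3 in 5-Ph-IAA alone and 28 of 36 in TIR1 alone.

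**Figure D5:**
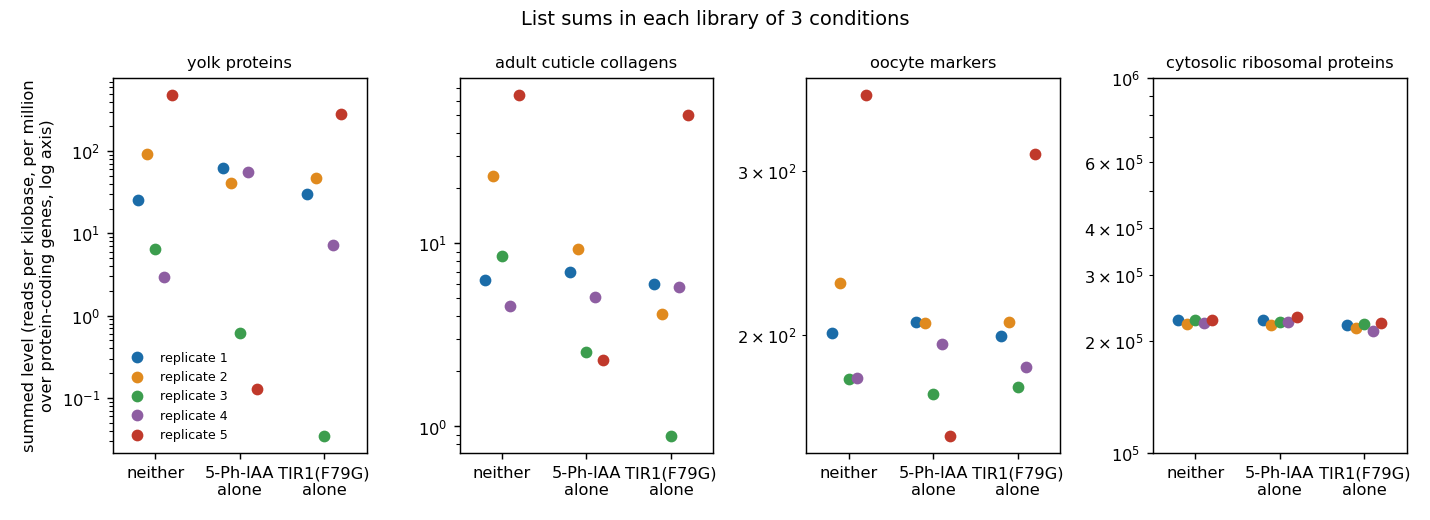
Summed level of 4 lists (y axis, reads per kilobase, scaled to 1000000 over protein-coding genes, log axis) in each library (points, 1 colour per replicate) with neither component, 5-Ph-IAA alone and TIR1(F79G) alone. With neither component, yolk proteins range from 2.95 to 475 and the ribosomal protein sums from 221471 to 227023. Across all conditions shown, the ribosomal protein sums run from 211800 (TIR1(F79G) alone) to 231292 (5-Ph-IAA alone).

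The baseline was compared with the libraries of each single component to see which of its genes differed. TIR1 alone is a separate strain, OH17582, so the insertion and any other difference between the strains cannot be told apart. Positive differences mean higher with neither component. Against 5-Ph-IAA alone, 5 of 17090 genes (0.0293%) were called by limma at an adjusted p under 0.05 and 1.5-fold, and against TIR1 alone 42 (0.246%), of which 28 were higher and 14 lower with neither component. None of the 20 most abundant genes was called in either comparison, with 1 and 7 of them at an unadjusted p under 0.05, and their log2 differences lay between -0.094 and 0.059 against 5-Ph-IAA alone and between -0.196 and 0.152 against TIR1 alone. None of the 153 very abundant genes was called either, and 10 and 49 had an unadjusted p under 0.05. Over all 17090 genes tested, 835 and 1795 had a limma unadjusted p under 0.05. Against TIR1 alone, the share was thus larger among the 153 and the 20 most abundant genes than over all genes. By median the 153 genes differed by -0.02 and 0.07 on the log2 scale, beside -0.002 and 0.002 over all genes tested. Of the 134 variable genes, 1 was called against 5-Ph-IAA alone and 2 against TIR1 alone.

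The variable gene called against 5-Ph-IAA alone was *col-41*, with 44.7, 44.6, 42.5, 36.4 and 84.3 normalized counts with neither component and 11.4, 14.2, 9.78, 13.4 and 28.8 with 5-Ph-IAA alone, a log2 difference of 1.68 ± 0.265 (SE, limma adjusted p = 0.00591). The groups did not overlap. The other 4 genes were lower with neither component. The glucuronosyltransferase gene *ugt-41* had 435 ± 70.4 with neither component and 732 ± 114 with 5-Ph-IAA alone (limma adjusted p = 0.00194), and *irg-5*, an infection response gene, had 172 ± 26.9 with neither component and 468 ± 78.2 with 5-Ph-IAA alone (limma adjusted p = 0.00458). The cytochrome P450 gene *cyp-35C1* had 154 ± 19.2 with neither component and 245 ± 28.4 with 5-Ph-IAA alone (limma adjusted p = 0.00548). *cyp-35A1* had 1.84 ± 1.21 with neither component and 8.44 ± 1.70 with 5-Ph-IAA alone (limma adjusted p = 0.0403), and this call was lost in 15 of 19 alternatives.

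Against TIR1 alone, the called insulin-like peptide gene was *ins-27*, the highest of its family in the baseline, with 452, 319, 505, 484 and 524 normalized counts with neither component and 220, 237, 260, 279 and 318 with TIR1 alone, a log2 difference of 0.79 ± 0.140 (SE, limma adjusted p = 0.00527). The lowest value with neither component was just above the highest with TIR1 alone. The variable genes called were *cpr-2* (1.61 ± 0.314, limma adjusted p = 0.0114) and *scl-5* (1.26 ± 0.243, limma adjusted p = 0.0109). The called genes furthest lower with neither component were *ZK938.3*, with 11.6 ± 5.84 normalized counts with neither component and 344 ± 12.1 with TIR1 alone, and *fdgt-2*, with 3.03 ± 2.98 with neither component and 33.8 ± 8.82 with TIR1 alone. The called gene furthest higher was *B0511.11*, with 128 ± 5.38 with neither component and 20.6 ± 4.797 with TIR1 alone. *alh-2*, an aldehyde dehydrogenase gene, had 62.8 ± 13.8 with neither component and 10.1 ± 4.801 with TIR1 alone. *unc-18*, which acts in synaptic vesicle release, had 1277 ± 91.8 with neither component and 3272 ± 73.6 with TIR1 alone. The neuronal gene *unc-119* had 119.7 ± 12.65 with neither component and 197 ± 16.1 with TIR1 alone. The cuticle collagen gene *col-42* had 1059 ± 162 with neither component and 549 ± 100.2 with TIR1 alone, and the F-box gene *fbxa-192* had 95.8 ± 15.5 with neither component and 30.1 ± 3.42 with TIR1 alone. Among the other called members of the families, *his-18*, *clec-166* and the small nucleolar RNA gene *B0228.10* were higher with neither component, and *lbp-1*, *nas-10* and *grl-23* lower. Of these 6 genes, *lbp-1* kept the call in all 20 alternatives, while *his-18* lost it in 6, *grl-23* in 9, *nas-10* in 10, *B0228.10* in 12 and *clec-166* in 13.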

How the data were processed

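Total RNA of whole dauers was sequenced in 20 libraries. On Galaxy, the authors checked reads with FastQC, trimmed them with Trimmomatic, aligned them to the *C. elegans* genome (WS284 release) with STAR, counted them with featureCounts and normalized them with DESeq2. Tool versions and strand setting are not given in the sources used here. The deposited signal values are normalized counts, and dividing by the value of 1 read gave whole reads for 100% of entries (tolerance 0.001), so size factors could be undone. Gene names, exon lengths and coordinates come from the WBcel235 annotation, which held 46921 of 46925 genes. Mitochondrial genes were named by overlap with RefSeq genes.

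Levels, families, absent genes and spread are descriptions without a test. Families were taken by symbol, and members and lists were chosen with earlier results of these data known. Comparisons used limma 3.58.1 in R 4.3.3 (trend enabled) on log2 of the normalized count plus a pseudocount of 1, all 20 libraries, and genes with a mean of at least 2. edgeR 4.0.16, DESeq2 1.42.0, other pseudocounts, filters, scalings, a replicate block and leaving out each library were alternatives. Named genes were the 20 highest by level, up to 4 leading members and the defining members of each list, the 15 most variable and 10 steadiest genes, genes the study names, and called genes among these or with the largest differences. Other list members and the genes of the replicate patterns were named after their values were seen. Methods were tested on simulated data. Floors cover counting error only. Limma p-values test a difference between group means against the spread between biological replicates, moderated and pooled over all conditions fitted.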

Additional observations from a re-analysis of the deposited data

Results flagged for a closer look

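Dixon's criterion flagged 12 of 110 values checked. In each, 1 of the 5 libraries stood apart from the nearest other by more than 0.71 of the whole range. The values checked included normalized counts of genes picked for a high biological CV in these same libraries. A library that stands apart raises that CV, so 12 of 110 cannot be compared with the chance rate of about 1 in 20 groups. Vitellogenins account for 7 of the 12 flagged values, and their summed level repeats the same genes. Replicate 5 was the highest library for the summed vitellogenin level (475, next 91.3), for *vit-6* (5385 normalized counts, next 931), *vit-2* (4546, next 814), *vit-5* (1534, next 299.6), *vit-1* (1701, next 404), *vit-3* (499.9, next 86.8) and *vit-4* (469, next 119.5). The oocyte marker sum (361, next 227) and *col-140* (391 normalized counts, next 124) were highest in replicate 5 too. The part of non-dauer animals in this was not tested.

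The summed level of fat synthesis and desaturation genes was highest in replicate 4, at 5504 against 4737 to 4895 in the other libraries. The intestinal peptide secretion list was lowest in replicate 4, at 300.4 against 312 to 316. *rps-1* was lowest in replicate 2, at a level of 4476 against 4654 to 4697.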

How the results depend on the processing

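Counts of genes by level class changed by under 1.5 times in all alternatives run: genes with no read ranged from 1968 to 2268 and very abundant genes from 143 to 154. Without length correction, the first 20 genes held 9.57% (12.4% by level) and ribosomal proteins 9.21% (22.5% by level). Leaving out each library in turn gave 12.36% to 12.45% and 22.4% to 22.6%. Variable genes numbered 110 to 164 with a library left out, 140 after rescaling to equal totals, 41 with a minimum mean of 200, 32 over 0.5 and 33 with edgeR.

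Against 5-Ph-IAA alone, calls numbered 18 with a replicate block, 10 when only the compared conditions were fitted, 12 with DESeq2 and 4 with edgeR, beside 5 with limma, and 4 to 7 with a library left out. Against TIR1 alone there were 107 with the block, 61 with DESeq2 and 44 with edgeR, beside 42, and 24 to 55 with a library left out. The 24 were reached without replicate 4 with neither component and without replicate 2 of TIR1 alone. Deviations of libraries with the same number correlated at 0.249 (replicate 5, TIR1 alone) and 0.125 (replicate 2, 5-Ph-IAA alone). In the other pairs the correlations were lower, -0.026 to 0.09. Libraries correlated best with their own number in 3 of 5 pairs with 5-Ph-IAA alone and 2 of 5 with TIR1 alone. The labels do not say what a number marks, so the libraries were not treated as pairs. Single lists can follow the number: the glyoxylate and gluconeogenesis sum was highest in replicate 3 with neither component (9678), 5-Ph-IAA alone (9844) and TIR1 alone (9587). No call reversed. Genes near 0 reads are limited by depth, and the cause of the differences was not tested.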
